A study of Mus musculus with 22 samples.

Results

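Cardiac fibroblasts of mice with 3 days of pressure overload were compared with cardiac fibroblasts of sham-operated mice, gene by gene. The libraries were chosen by their labelled condition alone: 3 libraries of 3 day TAC and 2 libraries of 3 day TAC sham, or 5 of the 22 libraries of the series. TAC was read as transverse aortic constriction, a surgical narrowing of the aorta; the labels give the abbreviation only. All of these mice were wild type male C57BL/6 animals, 10 to 14 weeks of age, and the series also holds 3 libraries of sedentary cardiac fibroblasts, given as a second, unoperated control. Polyadenylated RNA of the isolated cells was sequenced, and expression was given as FPKM, a fragment count scaled to transcript length and to library size. The labels do not say whether the libraries came from separate animals or pools, so a p-value here speaks only of the variation among these libraries, which may be technical.

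Constriction of the aorta raises the pressure against which the left ventricle ejects. Cardiac fibroblasts are known to answer such load by dividing, by making fibrillar collagen and the enzymes that fold and crosslink it, and by taking up contractile proteins of smooth muscle, a state called the myofibroblast. Resident and recruited macrophages, which release cytokines and complement proteins and respond to interferon, share the tissue with them, and their RNA can be carried into a fibroblast preparation.

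A gene was tested when it reached an FPKM of at least 1 in at least 2 of the 19 fibroblast libraries of the series, which 9425 of 23359 genes did. The values log2(FPKM + 1) were compared between TAC and sham with limma, and calls were made where the p adjusted by Benjamini-Hochberg was below 0.05. Fold changes are on the log2(FPKM + 1) scale, TAC minus sham, which understates the change of low genes. By this rule 2953 genes, 31.3% of those tested, were higher after TAC, and 2430 genes, 25.8%, were lower. All TAC libraries lay above both sham libraries in 3635 of the 9425 genes tested, and below both in 3223. A lack of overlap between the groups was therefore common and sets no gene apart. Pearson correlations of log2 values across genes, which are not independent replicates, ran from 0.967 to 0.986 among the TAC libraries, reached 0.955 between the sham libraries and ran from 0.754 to 0.872 between the groups. The absolute depth of the libraries is unknown. Relative depth, estimated from the FPKM worth of a single fragment, was 2.71 to 3.01 in the TAC libraries and 3.26 and 2.06 in sham replicates 1 and 2, with the shallowest library of the series set to 1.

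Transcript length ran through the whole comparison. In the decile of tested genes with the shortest transcripts, 59 to 1067 bases, the median log2 fold change was 1.10, and 69.8% of the genes were called higher against 3.86% lower. In the decile with the longest, above 6065 bases, the median was -0.77, and 4.18% were called higher against 73.7% lower. With the median transcript of each gene as its length, in place of the longest, these medians were 0.90 and -0.74. Across genes, Spearman's correlation between fold change and length was -0.59 over 9316 genes. The slope of log2(FPKM + 1) on log2 length was -0.73, -0.67 and -0.81 per doubling in TAC replicates 1, 2 and 3, and -0.22 and -0.24 in sham replicates 1 and 2. All 3 TAC libraries lay beyond both sham libraries in this slope; 3 against 2 libraries allow no exact permutation test to reach 0.05. The sedentary libraries, with slopes from -0.31 to -0.18, lay with sham, as did the 5 day MI libraries, at -0.23 and -0.22. The 10 day TAC libraries, at -0.79 to -0.64, and the swim libraries, at -0.92 to -0.54, lay with 3 day TAC. Because the trend coincides with the groups, a change in long against short transcripts cannot be told apart from a technical difference between the preparations.

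**Figure D1:**
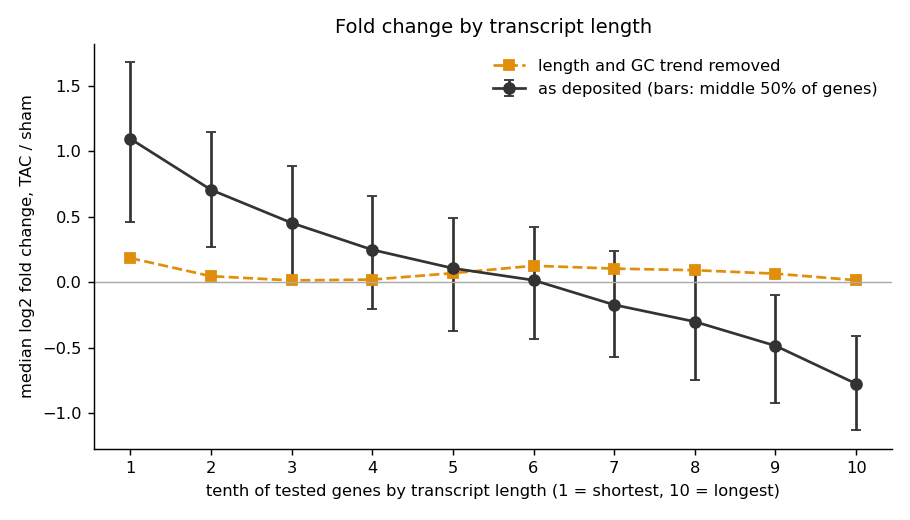
Median log2 fold change of TAC over sham (vertical axis) in deciles of the tested genes ordered by transcript length (horizontal axis), before (circles; bars span the middle 50% of genes) and after (squares) the length and GC trend was taken out. The medians fall from 1.10 in the shortest decile to -0.77 in the longest and lie between 0.01 and 0.19 once the trend is removed.

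Most results are therefore given a second time, as corrected values, after a smooth trend on transcript length and GC content had been removed from every library. In these corrected values 2580 of 9316 genes, 27.7%, were higher and 1597, 17.1%, were lower. Counts of list members below stand against these shares, and as deposited against 31.3% higher and 25.8% lower. Of the genes called, 1772 were higher and 1166 were lower in both fits, and 122 were called in opposite directions. The median log2 fold change over all genes tested was 0.05 as deposited and 0.07 corrected.

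Many interferon-induced genes were lower after TAC. Ifit1, an antiviral protein that binds foreign RNA, was at 2.32, 8.34 and 0.558 FPKM in TAC replicates 1 to 3 and at 164 and 66.5 in sham replicates 1 and 2, and its log2 fold change was -4.86 (SE 1.05, adjusted p = 0.00139) and -4.54 corrected (adjusted p = 0.00139). Rsad2, which encodes the antiviral enzyme viperin, was at 3.17, 14.6 and 1.04 FPKM against 190 and 88.2 (log2 fold change -4.68, SE 1.34, adjusted p = 0.00921; corrected -4.12). Neither gene overlapped between the groups, and in both TAC replicate 2 was the highest TAC library and sham replicate 1 the higher sham library. Isg15, a ubiquitin-like modifier, was at 15.1, 35.5 and 11.9 FPKM against 87.8 and 53.0; its fold change of -1.82 missed the threshold as deposited (adjusted p = 0.0617) and was -2.80 corrected (adjusted p = 0.0135).

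Of the 33 tested members of a list of interferon-stimulated genes, 19 were lower and 2 higher (median log2 fold change -1.51). Corrected, 20 were lower and 1 higher (median -1.39). Of all genes tested, 25.8% were lower as deposited and 17.1% corrected. The members that rose as deposited were Bst2, which tethers virions to the cell (0.89), and Ifitm3, which blocks viral entry (0.48); both are short, and corrected they were at -0.17 (adjusted p = 0.542) and -0.50 (adjusted p = 0.0565). The count of lower members depended on single libraries: it was 7 without sham replicate 1, and corrected it was 5 without sham replicate 1, 10 without TAC replicate 3 and 13 without TAC replicate 1. The higher count was 1 without any library other than TAC replicate 2, and 0 corrected whichever library was left out. The interferon-inducible GTPases, which act on vacuoles that hold pathogens, were lower in 14 of 15 cases as deposited (median -2.08) and in 13 of 15 corrected, with none higher. Without sham replicate 1 these counts were 8 and 4. Gbp2 was at 1.44, 2.80 and 1.399 FPKM after TAC and 20.9 and 10.2 after sham (log2 fold change -2.48, SE 0.445, adjusted p = 0.000228; corrected -2.34), and the very large GTPase Gvin1 at 0.236, 0.547 and 0.243 against 15.4 and 11.6 (-3.43, SE 0.431, adjusted p = 1.19e-05; corrected -2.33). Ifi47, at -1.63 (adjusted p = 0.132), did not pass.

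Interferon-responsive promoters are known for the interferon-stimulated response element, and promoters were searched for its core, GAAANNGAAA, on both strands of the 250 bases before the start site (RefSeq promoter windows, build GRCm38.p6). Of the GTPases tested, 10 had such a window and 9 of these (90%) held the core; of the interferon-stimulated genes, 23 had one and 9 (39.1%) held it. Among all tested genes with a window, 3.6% held the core, and the share was 6.45% of genes lower in both fits and 2.95% of genes higher in both. Within the interferon-stimulated list, of the 9 genes with it 5 were called lower and 1, Bst2, higher, and of the 14 without it 8 were called lower and 1 higher. A match describes letters in the window, not a bound site. The 150 bases before the start of 3 of the genes described above are shown because they hold the core, in capitals; Ifit1 lies on the plus strand (chr19:34640739-34640888), Rsad2 on the minus strand (chr12:26456453-26456602) and Gbp2 on the plus strand (chr3:142620513-142620662).
Ifit1: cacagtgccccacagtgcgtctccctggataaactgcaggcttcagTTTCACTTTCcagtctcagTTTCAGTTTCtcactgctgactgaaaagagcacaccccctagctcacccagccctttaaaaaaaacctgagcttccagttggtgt
Rsad2: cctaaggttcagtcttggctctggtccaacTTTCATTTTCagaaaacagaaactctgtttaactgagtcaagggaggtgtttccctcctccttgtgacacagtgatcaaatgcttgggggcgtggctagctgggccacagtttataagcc
Gbp2: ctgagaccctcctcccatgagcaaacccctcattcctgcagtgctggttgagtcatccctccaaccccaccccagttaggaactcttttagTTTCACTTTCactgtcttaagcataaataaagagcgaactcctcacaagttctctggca

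Each core in these windows reads on the strand opposite to transcription, as TTTC, a spacer and TTTC. Ifit1 holds 2 of them, the first base of each 104 and 85 bases before the start, Rsad2 holds 1 at 120 and Gbp2 holds 1 at 59.

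**Figure D2:**
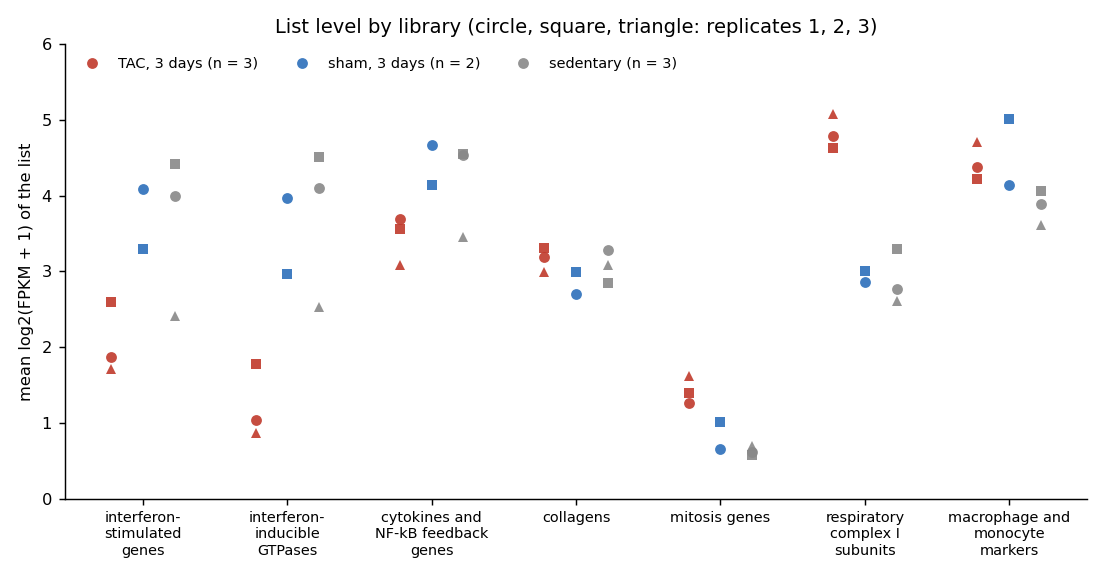
Mean log2(FPKM + 1) of 7 gene lists (vertical axis) in each TAC, sham and sedentary fibroblast library, with symbols for replicates 1, 2 and 3. The interferon-stimulated list lies at 1.72 to 2.60 in the TAC libraries, 3.29 and 4.09 in sham and 2.41 to 4.42 in sedentary libraries; the list of macrophage markers overlaps between TAC and sham.

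The sedentary libraries differed among themselves in interferon-stimulated RNA. Ifit1 was at 124, 108 and 11.5 FPKM in sedentary replicates 1, 2 and 3, and Rsad2 at 165, 255 and 15.7. Sedentary replicate 3 lay just above the highest TAC library for both genes, while the other sedentary libraries were near or above sham. Over the whole interferon-stimulated list its mean log2(FPKM + 1), 2.41, lay within the 1.715 to 2.599 of the TAC libraries. Its summed FPKM of 433 was below their 612.7 to 752.6. Over the interferon-inducible GTPases its mean, 2.524, was above the 0.8637 to 1.779 of the TAC libraries. The gene of interferon beta itself, Ifnb1, was at 0.882, 0.953 and 1.24 FPKM after TAC, 29.2 and 22.7 after sham, and between 7.40 and 16.1 in sedentary libraries (TAC against sham -3.73, SE 0.623, adjusted p = 0.000154; corrected -4.34, adjusted p = 0.000142). This gene, whose transcript of 750 bases is short, moved against the length trend.

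Members of the p200 family, interferon-inducible proteins of which some sense DNA, were among the 15 largest falls. Ifi203, Ifi204, Ifi205, Mnda, Mndal and Pyhin1 changed by -3.77 to -3.27 log2 units, with no overlap of the groups. They are near-identical neighbours between which reads may have been split, so their separate values are uncertain. Beyond them, Ahnak, a very large scaffold protein, was at 26.8 and 84.5 FPKM after sham and 2.66, 3.20 and 2.83 after TAC, and Lama2, a laminin chain, at 23.3 and 20.9 against 0.993, 1.61 and 0.674. These FPKM values are not corrected for transcript length. In the decile with the longest transcripts, 73.7% of all tested genes were lower as deposited. Parp14, an ADP-ribosyltransferase, fell by 3.54 (adjusted p = 6.72e-05; corrected 2.71 lower, adjusted p = 0.00056).

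Chemokines and cytokines were lower where they were called in the corrected values, with 1 exception among chemokines. The mean log2(FPKM + 1) of the listed chemokines was 3.958 to 4.13 after TAC and 4.804 and 4.561 after sham. Sedentary replicates 1 and 2 were at 4.566 and 4.832, and sedentary replicate 3, at 3.804, was below the TAC libraries. Ccl5, which recruits T cells and monocytes, was at 1.39, 2.22 and 0.962 FPKM after TAC and 165 and 75.2 after sham, and was lower by 5.51 log2 units (SE 0.588, adjusted p = 4.36e-06) with -6.62 corrected. Cxcl2, which draws neutrophils, was at 99.4, 83.7 and 104.5 FPKM against 788 and 386 (-2.52, SE 0.495, adjusted p = 0.000476; corrected -2.55). Ccl3, a macrophage chemokine, was at 33.4, 31.2 and 48.5 FPKM against 196 and 181 (-2.32, SE 0.498, adjusted p = 0.000967; corrected -3.02). None of these overlapped between the groups, which was also so of most genes tested. The monocyte chemokine Ccl2, at 1248, 1435 and 502 FPKM after TAC and 1626 and 447 after sham, overlapped and did not pass (0.18, adjusted p = 0.866). Of 26 chemokine genes tested, 7 were lower and 4 higher as deposited, and 12 lower and 1 higher corrected (2 higher and 11 lower by the median transcript). The lower count as deposited was near the 25.8% of all genes; corrected, 17.1% of all genes were lower. Without sham replicate 1 the corrected lower count was 6, and the higher count as deposited was 1. The corrected higher count was 2 without TAC replicate 2 and 3 without sham replicate 2.

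Among 32 tested cytokines and feedback genes of NF-kB signalling, 11 were lower and none higher as deposited (median -0.85), against 25.8% of all genes lower. Corrected, 8 were lower and none higher (median -0.65), against 17.1% of all genes lower. Without sham replicate 1 the count as deposited was 7. Tnf, tumour necrosis factor, was at 7.77, 7.11 and 15.7 FPKM after TAC and 76.4 and 68.5 after sham (-2.79, SE 0.507, adjusted p = 0.00025; corrected -3.29). Il1a, interleukin 1 alpha, changed by -2.69 (adjusted p = 0.000338; corrected -2.58) and Tnfaip3, the feedback inhibitor A20, by -1.98 (adjusted p = 0.000231; corrected -1.55). Il6, the cytokine of the acute phase response, varied widely within each group, from 33.1 to 120 FPKM after TAC and from 115 to 448 after sham, and did not pass (-1.57, adjusted p = 0.164). Csf1, the macrophage growth factor, did not pass either (-1.96, adjusted p = 0.126).

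Complement genes fell more often than they rose. Among all genes tested, 31.3% were higher and 25.8% lower as deposited, and 27.7% and 17.1% corrected. The mean log2(FPKM + 1) of the listed complement genes was 3.446 to 3.641 after TAC and 3.947 and 4.442 after sham. Sedentary libraries, at 3.47 to 3.704, overlapped with TAC. C3, the component on which all complement pathways converge, was at 24.7, 27.2 and 14.7 FPKM after TAC and 144 and 219 after sham (-2.99, SE 0.469, adjusted p = 6.32e-05; corrected -2.65, adjusted p = 0.000169). The membrane inhibitor Cd55 (-1.45) and the component C4b (-1.30) also fell, while C1qb, a chain of the recognition molecule made by macrophages, was at 0.03 (adjusted p = 0.944; corrected -0.94, adjusted p = 0.0163). Of 16 tested complement genes, 7 were lower and 3 higher (C1qa, C1qc and Cfp, named after their values were seen). Corrected, 9 were lower, or 8 by the median transcript, and none higher. The higher count as deposited was 0 without TAC replicate 3 and without sham replicate 1, and the corrected lower count was 5 without TAC replicate 3 and 3 without sham replicate 2.

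Immediate early genes, transcription factors and feedback regulators induced within minutes of stimulation or cell dissociation, were lower in 10 of 35 cases as deposited and in 13 corrected (15 by the median transcript), with 1 and none higher (1 by the median transcript). The count as deposited was near the 25.8% of all genes lower, and the corrected one stood against 17.1%. Gadd45g, a stress-response gene, was at 3.83, 6.66 and 1.99 FPKM after TAC and 31.4 and 12.1 after sham (-2.10, SE 0.477, adjusted p = 0.00147; corrected -3.13), and Klf4 and Klf6 fell by 1.48 each (adjusted p = 0.0118 and 0.00069). Junb (0.25, adjusted p = 0.39) and Ier3 (0.31, adjusted p = 0.401), the most abundant members that did not pass, overlapped between the groups. The corrected lower count was 8 without sham replicate 2, and the higher count ran from 0 to 2 as single libraries were left out. How much of these levels came from cell isolation was not tested.

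**Figure D3:**
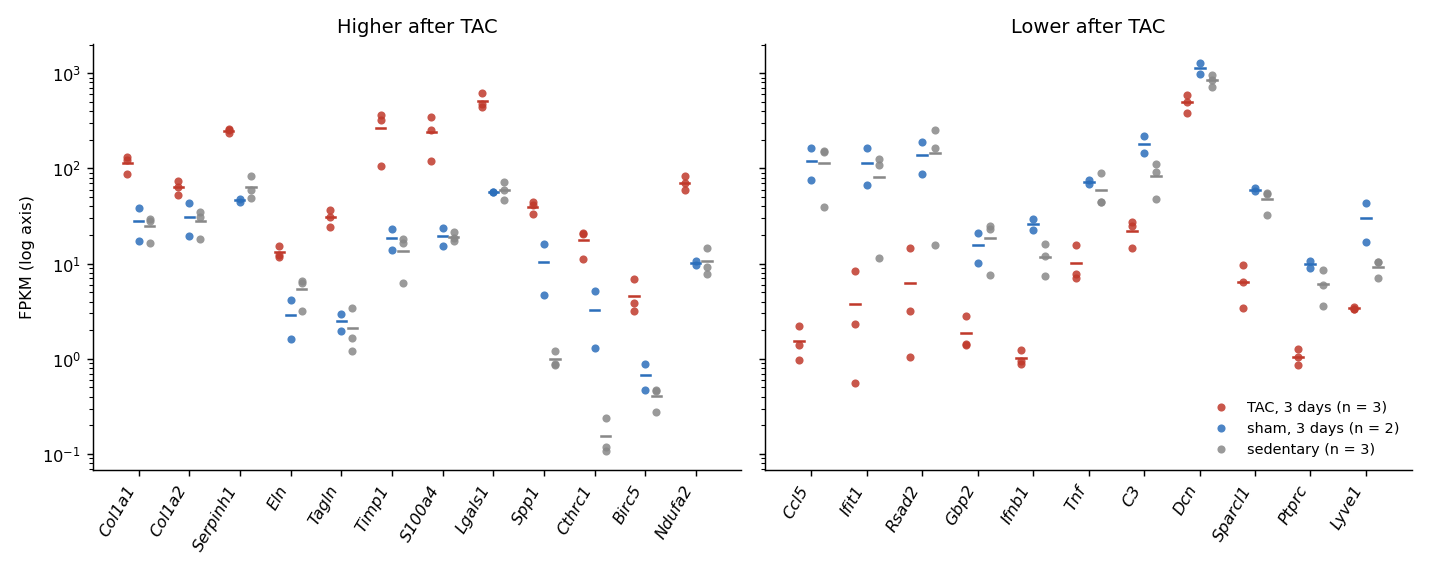
FPKM on a log axis of 12 genes higher and 11 genes lower after TAC, in each TAC (n = 3), sham (n = 2) and sedentary (n = 3) library; short lines are group means. Ccl5 lies at 0.962 to 2.22 FPKM in the TAC libraries and at 75.2 and 165 in sham, and Col1a1 at 86.8 to 132 against 17.2 and 38.9.

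Type I collagen rose after TAC, while the share of collagens called higher exceeded that of all genes only in the corrected values. Col1a1, the alpha 1 chain of type I collagen and the main fibrillar collagen of scar, was at 122, 132 and 86.8 FPKM after TAC and 17.2 and 38.9 after sham, and its log2 fold change was 2.07 (SE 0.369, adjusted p = 0.000178) and 2.32 corrected (adjusted p = 5.61e-05). Its partner chain Col1a2 was at 64.1, 73.3 and 52.5 FPKM against 19.7 and 42.9 (1.08, SE 0.321, adjusted p = 0.0086; corrected 1.36, adjusted p = 0.000841). Both genes were higher in every TAC library than in either sham library. Col6a2, a chain of the beaded microfibrils around cells, was at 44.9, 51.1 and 40.4 FPKM against 18.7 and 20.6 (1.17, SE 0.267, adjusted p = 0.0014; corrected 1.36).

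Col3a1, the fibrillar collagen of compliant tissue, showed how far 1 sham library could decide a result. It was at 42.5, 44.4 and 39.7 FPKM after TAC but at 15.8 and 45.2 after sham, and did not pass as deposited (0.63, adjusted p = 0.187). Corrected it passed (1.05, adjusted p = 0.0241), a call lost without TAC replicate 1 (adjusted p = 0.0505), TAC replicate 3 (0.0529) or sham replicate 1 (0.481). As deposited its change was -0.10 (adjusted p = 0.871) without sham replicate 1 and 1.36 (adjusted p = 0.0148) without sham replicate 2. Of the 19 collagen genes tested, whose median transcript length was 5930 bases, 5 were higher and 2 lower as deposited (median 0.33), and 13 were higher and none lower corrected (median 0.76), against 31.3% of all genes higher as deposited and 27.7% corrected. The share of collagens higher as deposited was thus below that of all genes. Their median as deposited was above the 0.05 of all genes. In the decile of 4666 to 6065 bases, which holds their median length, 6.99% of genes were higher as deposited (median -0.48). With the median transcript of each gene in place of the longest as its length, 11 collagens were higher corrected. The count as deposited was 3 without sham replicate 1, and the corrected count was 7 without sham replicate 1 and 8 without sham replicate 2. Without TAC replicate 3 or sham replicate 1, 1 collagen gene was lower as deposited. The lower genes over all libraries were Col14a1 (-1.09) and the basement membrane chain Col4a1 (-0.73). As deposited, the mean log2(FPKM + 1) of the collagen list was 2.985 to 3.31 after TAC and 2.707 and 2.99 after sham. Sedentary libraries, at 2.846 to 3.275, overlapped with TAC.

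The enzymes and chaperones that mature collagen moved more evenly between libraries. Serpinh1, the collagen chaperone HSP47, was at 259, 235 and 252 FPKM after TAC and 44.6 and 48.0 after sham (2.40, SE 0.214, adjusted p = 1.43e-06; corrected 2.05, adjusted p = 8.97e-06). Fkbp10, a prolyl isomerase of the endoplasmic reticulum, was at 19.1, 17.2 and 20.2 FPKM against 3.51 and 4.29 (2.02, SE 0.195, adjusted p = 1.62e-06; corrected 1.76). Loxl1, which crosslinks elastin and collagen, was at 43.7, 38.5 and 44.9 FPKM against 9.06 and 11.3 (1.96, SE 0.203, adjusted p = 2.33e-06; corrected 1.83). In each of these the TAC libraries lay within a narrow band well above both sham libraries. Of 22 tested members, 11 were higher and 2 lower in either fit, and none was lower without TAC replicate 3 or without sham replicate 1. The crosslinking enzyme Loxl2 (-0.05, adjusted p = 0.914) and the procollagen protease enhancer Pcolce2 (-0.62, adjusted p = 0.0613) did not pass.

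Other matrix genes went both ways. The shares of all genes were 31.3% higher and 25.8% lower as deposited, and 27.7% and 17.1% corrected. Of 17 tested elastic fibre and microfibril genes, 7 were higher and 4 lower in either fit; the lower count was 2 as deposited and 1 corrected without sham replicate 1. Eln, elastin, was at 11.8, 15.4 and 12.3 FPKM after TAC and 1.63 and 4.12 after sham, and Efemp2, which assembles elastic fibres, rose by 1.67 (adjusted p = 3.27e-06; corrected 1.54). Ltbp4 (-1.26), Emilin2 (-1.23), Efemp1 (-1.21) and Ltbp1 (-1.20) were the members lower as deposited. Among matricellular proteins, which signal to cells rather than build the matrix, Spp1, osteopontin, was at 33.2, 44.3 and 41.0 FPKM after TAC and 4.71 and 16.2 after sham (2.02, SE 0.441, adjusted p = 0.00108; corrected 1.82), and Cthrc1, a gene of activated fibroblasts, at 20.97, 20.6 and 11.1 against 1.30 and 5.14 (2.25, SE 0.666, adjusted p = 0.00981; corrected 1.77). Both were lower still in all sedentary libraries, Spp1 at 0.867 to 1.22 FPKM and Cthrc1 at 0.107 to 0.237. Sparcl1 went the other way, at 6.35, 9.58 and 3.43 FPKM against 62.0 and 57.4 (-3.11, SE 0.379, adjusted p = 6.69e-06; corrected -2.96), as did Thbs2 (-2.13, adjusted p = 0.000112; corrected -1.51). Thbs1, at 128, 149 and 51.5 FPKM against 581 and 182, did not pass (-1.70, adjusted p = 0.101), nor did Postn, periostin, at 15.4, 18.4 and 13.1 against 11.3 and 34.4 (-0.34, adjusted p = 0.484; 0.10 corrected). Fn1, fibronectin, was at -0.47 (adjusted p = 0.213; 0.09 corrected). Of 18 matricellular genes tested, 7 were higher and 2 lower as deposited and 6 and 2 corrected; the lower count was 4 without TAC replicate 2 and 4 without sham replicate 1.

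Small proteoglycans of the matrix went both ways. Dcn, decorin, was at 502, 598 and 383 FPKM after TAC and 1270 and 982 after sham (-1.20, SE 0.317, adjusted p = 0.0041; corrected -1.25, adjusted p = 0.00525), and Ogn, osteoglycin, at 11.6, 18.4 and 9.43 against 71.0 and 62.6 (-2.31, SE 0.363, adjusted p = 5.52e-05; corrected -1.81). Lum, lumican, was at -0.49 (adjusted p = 0.127). Prelp, which anchors basement membranes, was at 48.7, 52.3 and 42.2 FPKM after TAC and 21.4 and 22.7 after sham (1.07, adjusted p = 0.00136; corrected 1.19), and Bgn, biglycan, rose by 0.60 (adjusted p = 0.0202; corrected 0.46, adjusted p = 0.0702); both were named after their values were seen. Sdc1, a cell-surface proteoglycan, rose by 1.81 (adjusted p = 4.92e-06; corrected 1.78). In all, 4 of 20 tested proteoglycan and hyaluronan genes were higher and 5 lower as deposited, and 4 and 3 corrected, shares not above those of all genes (31.3% higher and 25.8% lower as deposited). Leaving out sham replicate 1 gave 2 and 2 in either fit, and leaving out sham replicate 2 gave 4 and 3 as deposited.

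Timp1, which blocks matrix metalloproteinases, was at 321, 107 and 363 FPKM after TAC and 23.2 and 13.9 after sham (3.62, SE 0.502, adjusted p = 2.43e-05; corrected 2.70, adjusted p = 0.000377). TAC replicate 2 was well below the other TAC libraries but above both sham libraries. Proteases themselves were mostly lower where called. Of all genes, 25.8% were lower and 31.3% higher as deposited, and 17.1% and 27.7% corrected. Plau, the urokinase plasminogen activator, was at 8.25, 9.77 and 7.34 FPKM against 63.1 and 70.1 (-2.84, SE 0.471, adjusted p = 0.000105; corrected -2.84), and Mmp13, a collagenase, at 1.99, 2.39 and 0.868 against 20.9 and 10.1 (-2.55, SE 0.568, adjusted p = 0.00147; corrected -2.17). Of 28 tested proteases and inhibitors, 11 were lower and 4 higher as deposited. Corrected, 10 were lower and 5 higher, but 6 were lower with the median transcript as the length, 4 without TAC replicate 3, 6 without sham replicate 1 and 5 without sham replicate 2. The corrected higher count was 3 without sham replicate 1.

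Contractile genes of the myofibroblast moved separately from one another. Tagln, the actin-binding protein transgelin, was at 36.7, 24.0 and 31.2 FPKM after TAC and 1.98 and 2.97 after sham (3.18, SE 0.423, adjusted p = 1.43e-05; corrected 2.65, adjusted p = 0.000117). Myl6, a myosin light chain, was at 456, 370 and 471 FPKM against 73.9 and 79.97 (2.47, SE 0.224, adjusted p = 1.43e-06; corrected 1.91). Acta2, the smooth muscle actin by which myofibroblasts are usually identified, was at 21.7, 22.1 and 17.5 FPKM against 12.1 and 11.8: the groups did not overlap, but the change of 0.72 did not pass (adjusted p = 0.171; corrected 0.53, adjusted p = 0.333). Of 23 tested contractile genes, 8 were higher and 5 lower as deposited, and 3 higher and 1 lower corrected. These shares were near those of all genes as deposited, and below them corrected (27.7% higher and 17.1% lower). Without sham replicate 1 the counts as deposited were 5 and 3, and without sham replicate 2 the lower count was 3. The corrected lower count was 0 without TAC replicate 1, TAC replicate 3 or sham replicate 1, and 2 without sham replicate 2. Ctgf, a target of TGF-beta and mechanical signalling, was at 418, 474 and 199 FPKM against 235 and 107; its rise of 1.10 lay at the threshold (adjusted p = 0.0497; corrected adjusted p = 0.0508) and the groups overlapped.

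The markers that define cardiac fibroblasts were present in all 5 libraries. Pdgfra, the receptor used to mark these cells, was at 4.06, 4.29 and 3.82 FPKM after TAC and 10.9 and 14.7 after sham (-1.44, SE 0.297, adjusted p = 0.000624; corrected -0.73, adjusted p = 0.0268), a corrected call lost without any of the TAC libraries or without sham replicate 2, where its adjusted p was 0.0524 to 0.197. Tcf21, a transcription factor of the lineage, was at 25.8, 34.0 and 21.1 FPKM against 41.7 and 22.4 (-0.20, adjusted p = 0.689), and Dpt, dermatopontin, at 115, 150 and 87.0 against 174 and 143 (-0.46, adjusted p = 0.183). Among 22 genes of resting fibroblasts, 5 were higher and 7 lower as deposited, and 2 higher and 4 lower corrected, close to the 25.8% and 17.1% of all genes that were lower. Without TAC replicate 3 or sham replicate 2 the lower count as deposited was 3, and without sham replicate 1 the corrected higher count was 0. Without sham replicate 2 the corrected lower count was 2. Lamb1, a laminin chain, was the member with the largest fall (-1.84, adjusted p = 0.000476; corrected -1.401), and Cd248, endosialin, the called member with the largest rise (1.54, adjusted p = 0.00114; corrected 1.22).

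Several genes of cell division rose from low levels, though many others were too low to test. Birc5, survivin, which acts at dividing chromosomes, was at 3.21, 3.83 and 6.83 FPKM after TAC and 0.468 and 0.887 after sham (1.70, SE 0.264, adjusted p = 4.98e-05; corrected 2.04, adjusted p = 9.33e-05). Ube2c, which targets mitotic cyclins for destruction, was at 3.88, 4.80 and 7.69 FPKM against 0.437 and 0.917 (1.92, SE 0.259, adjusted p = 1.5e-05; corrected 1.56). Tk1, thymidine kinase of S phase, was at 1.85, 2.09 and 4.42 FPKM against 0.106 and 0.346 (1.57, SE 0.206, adjusted p = 1.15e-05; corrected 0.85). In all of these the TAC libraries lay above both sham libraries and TAC replicate 3 was the highest. Of the 34 mitosis genes listed, 17 passed the filter on low values; 16 of these were higher and none lower as deposited, and 11 were higher corrected, or 15 with the median transcript as the length. Since a low gene passed the filter only where some library held it above 1, these counts describe the members that passed and not the list. Mki67, the standard marker of dividing cells with a transcript of 10061 bases, did not pass the filter and was at 0.0359, 0.0789 and 0.0891 FPKM after TAC and 0.284 and 1.39 after sham, opposite in direction to the genes named above. Top2a, which untangles DNA, was likewise not tested here and was at 0.133, 0.178 and 0.228 FPKM after TAC and 0.232 and 0.740 after sham. The authors' deposited table did test both and gives log2 fold changes of -3.48 for Mki67 (authors' q-value 1.12e-10) and -1.21 for Top2a (0.0406). It gives Birc5, Ube2c and Tk1 as higher, at 3.01, 3.05 and 3.56. Of 16 DNA replication genes tested, out of 30 listed, 9 were higher and 1 lower as deposited and 11 and 1 corrected, the lower one being lost, in at least 1 of the fits, without any library but TAC replicate 3, and by the median transcript. Pcna, a clamp for DNA polymerase, was at -0.18 (adjusted p = 0.65).

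**Figure D4:**
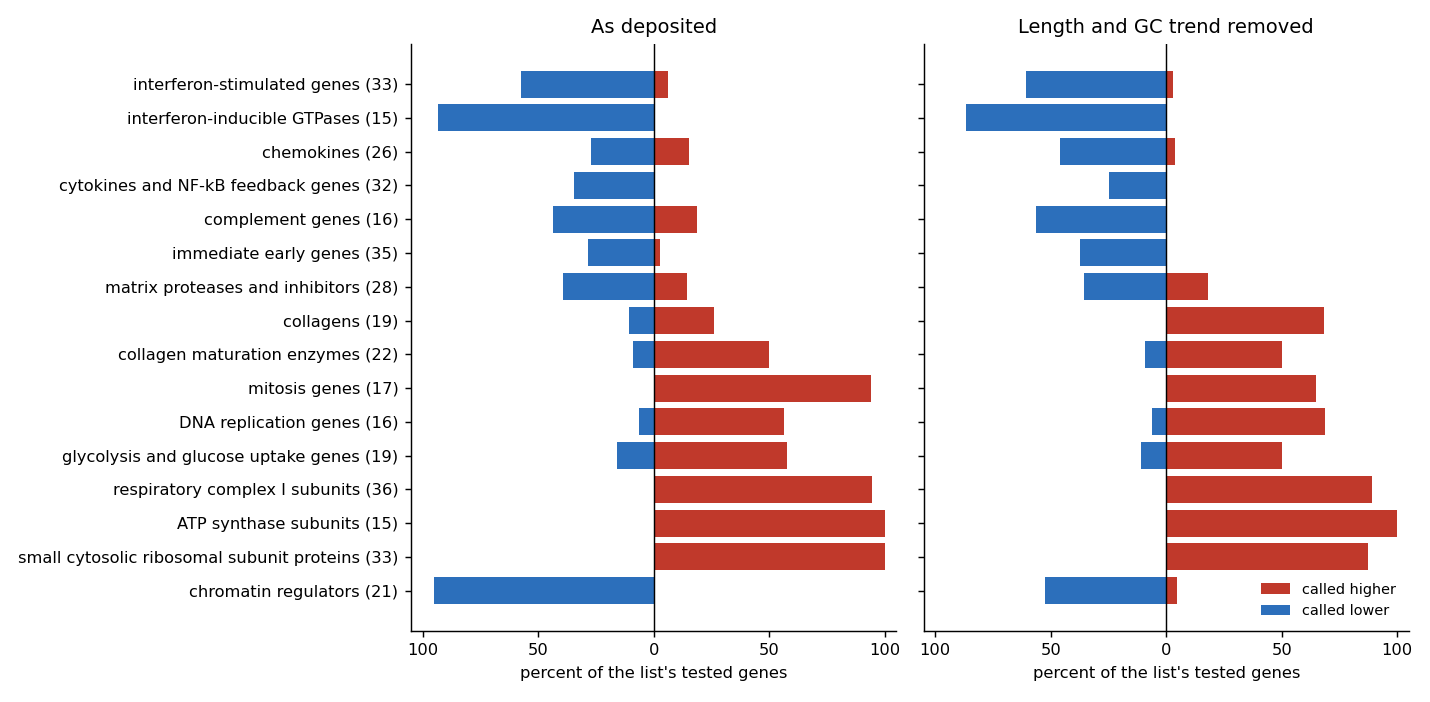
Percent of the tested genes of 16 lists (number tested in brackets) called higher (right) or lower (left) after TAC, as deposited and after the length and GC trend was taken out. The collagens go from 5 of 19 higher to 13 of 19, and the chromatin regulators from 20 of 21 lower to 11 of 21.

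Genes of oxidative phosphorylation, most of which have short transcripts, were higher in both fits. Of 36 subunits of respiratory complex I, 34 were higher as deposited (median 1.98) and 32 corrected (median 1.14), with none lower. Ndufa2, a small accessory subunit, was at 70.5, 59.0 and 83.4 FPKM after TAC and 9.77 and 10.8 after sham (2.66, SE 0.323, adjusted p = 6.51e-06; corrected 1.64, adjusted p = 4.28e-05). The 2661-base core subunit Ndufs1 was at 2.04, 2.12 and 2.24 FPKM against 2.59 and 2.75 and did not pass (-0.23, adjusted p = 0.212; corrected 0.02). Ndufs5 was listed at 18.6, 12.8 and 14.7 FPKM after TAC and at or near 0 in both sham libraries, so no fold is given. All 15 ATP synthase subunits were higher in both fits (median 1.90, corrected 1.14). Of complexes II and III, 12 of 14 were higher, and 13 corrected (14 by the median transcript); Sdhc, a membrane anchor of complex II with a transcript of 3171 bases, rose by 2.37 (adjusted p = 4.07e-06; corrected 2.61). Of complex IV, 11 of 14 were higher, and 9 corrected (11 by the median transcript); the muscle isoforms Cox7a1 (adjusted p = 0.0606) and Cox8b (adjusted p = 0.0849) did not pass.

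Ribosomal protein genes showed the same pattern. Their transcripts were also short, with medians of 882.5 bases for the small and 955 for the large cytosolic subunit. In the shortest decile of all tested genes, 69.8% were higher as deposited and 36.4% corrected. All 33 tested genes of the small cytosolic subunit were higher as deposited (median 2.01) and 28 of the 32 with a length corrected (median 1.24). Of 45 genes of the large subunit 42 were higher as deposited (median 1.66), and 35 of the 44 with a length corrected (median 0.76). None was lower. Rps14 was at 873, 808 and 976 FPKM after TAC and 115 and 130 after sham (2.84, SE 0.321, adjusted p = 4.12e-06; corrected 1.75, adjusted p = 5.25e-05). Rpl4, with a transcript of 1538 bases, was at 99.8, 102 and 88.6 FPKM against 117 and 106 (-0.20, adjusted p = 0.442). Of 38 mitochondrial ribosomal proteins, 32 were higher as deposited and 23 corrected. In the decile of 1068 to 1499 bases, which holds their median length, 63.7% of genes were higher as deposited and 25.6% corrected. Many of these ribosomal protein families have processed pseudogenes that could share their reads, so single values are uncertain. The median length of the proteasome subunits lay in the decile of 1500 to 1901 bases. There 49.2% of genes were higher as deposited and 23% corrected. Proteasome subunits were higher in 22 of 31 cases and lower in 1, and in 13 and 1 corrected (15 and 0 by the median transcript); the lower count as deposited was 3 without sham replicate 2 and 0 without any other library.

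Glycolytic genes rose more often than they fell. Over all genes tested, 31.3% were higher and 25.8% lower as deposited, and 27.7% and 17.1% corrected. Gapdh, an enzyme in the middle of the pathway, was at 98.2, 87.7 and 125 FPKM after TAC and 30.3 and 34.5 after sham, Tpi1, triosephosphate isomerase, rose by 1.67 (adjusted p = 2.39e-05; corrected 1.10) and Slc16a3, the lactate exporter MCT4, by 2.11 (adjusted p = 2.58e-05; corrected 2.25). Hk2, hexokinase 2, was at 11.6, 13.8 and 8.38 FPKM against 45.1 and 33.3 (-1.72, SE 0.466, adjusted p = 0.00501; corrected -1.28), and Hk1 changed by -1.49 (adjusted p = 0.00122; corrected -1.36). The glucose transporter Slc2a1 was at 0.59 (adjusted p = 0.276). Of 19 tested genes 11 were higher and 3 lower as deposited; of 18 with a length, 9 were higher and 2 lower corrected, with a lower count of 1 without TAC replicate 3 and 0 without sham replicate 1. Gapdh and Hk1 were named after their values were seen.

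Of 30 chromatin regulators listed, 21 passed the filter, with a median transcript length of 9037 bases. Of these, 20 were lower as deposited and 11 corrected, with 1 higher; since their mean log2(FPKM + 1) was 0.47 to 0.55 after TAC and 1.32 and 1.46 after sham, low members passed mainly through sham, and the counts describe only the members that passed. In the corrected values, without sham replicate 1 the corrected lower count was 7, and the higher count was 2 without TAC replicate 2 and 0 without TAC replicate 3. Chd4, a nucleosome remodeller, was at 0.768, 0.923 and 0.405 FPKM after TAC and 4.88 and 5.76 after sham (-1.90, SE 0.219, adjusted p = 4.54e-06; corrected -1.41, adjusted p = 1.72e-05). Setd2, a histone methyltransferase, was at -1.36 as deposited and -0.41 corrected (adjusted p = 0.0332, and 0.135 with the median transcript as the length). 

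S100 proteins, small calcium-binding proteins, were higher in 7 of 9 cases as deposited and 5 corrected, with none lower. Their median transcript length was 677 bases. In the shortest decile of all tested genes, 69.8% were higher and 3.86% lower as deposited, and 36.4% and 16.2% corrected. The count as deposited was thus near that of short genes. S100a4 was at 255, 120 and 345 FPKM after TAC and 15.3 and 23.9 after sham (3.45, SE 0.333, adjusted p = 1.62e-06; corrected 2.51), and S100a6 at 451, 414 and 569 against 50.3 and 54.1 (3.16, SE 0.252, adjusted p = 1.38e-06; corrected 2.10). S100a8, a neutrophil protein, was at 104, 4.25 and 63.9 FPKM after TAC and 10.1 and 35.4 after sham and did not pass (0.71, adjusted p = 0.637). TAC replicate 2, the lowest here, was also low for Chi3l3, a chitinase-like protein of macrophages, at 31.7, 1.63 and 31.8 FPKM against 0.358 and 1.43; its near-identical copy Chi3l4 makes this value uncertain. Lgals1, galectin 1, was at 476, 446 and 618 FPKM against 57.2 and 57.1 (3.13, SE 0.238, adjusted p = 1.38e-06; corrected 2.09).

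Markers of macrophages were abundant in both groups and did not move as a block. In bulk RNA, fewer cells of a type and less RNA per cell cannot be told apart. Ptprc, the leukocyte antigen CD45, was at 1.04, 1.27 and 0.864 FPKM after TAC and 8.93 and 10.7 after sham (-2.40, SE 0.277, adjusted p = 4.55e-06; corrected -1.63, adjusted p = 0.000119). Lyve1, a receptor of resident macrophages and lymphatic vessels, was at 3.52, 3.38 and 3.35 FPKM against 17.0 and 43.7 (-2.68, SE 0.395, adjusted p = 3.29e-05; corrected -2.39). Plac8, a gene of recruited monocytes, was at 34.8, 16.2 and 50.8 FPKM against 0.966 and 2.49 (3.60, SE 0.395, adjusted p = 3.72e-06; corrected 3.06). The pan-macrophage marker F4/80, listed under its older symbol Emr1, was at 12.5, 13.7 and 14.0 FPKM against 12.7 and 22.9 (-0.33, adjusted p = 0.438). Of 27 tested markers, 7 were higher and 9 lower as deposited, and 3 higher and 7 lower corrected. The shares of all genes were 31.3% and 25.8% as deposited, and 27.7% and 17.1% corrected. Without sham replicate 2, the library with the most macrophage RNA, 10 were higher and 2 lower as deposited and 6 and 3 corrected; without sham replicate 1, 4 were higher as deposited, and 1 was higher and 9 were lower corrected. The summed FPKM of the list was 1271 to 1921 after TAC, 1353 and 2913 after sham and 946 to 1217 in sedentary libraries, and its part in the changes of interferon, chemokine and complement genes was not tested.

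RNA of other heart cells was also present. The cardiomyocyte markers summed to 302 to 341 FPKM after TAC and to 348 and 297 after sham. Myh6, the main cardiac myosin, was at 2.48, 3.00 and 1.59 FPKM against 11.8 and 12.6 (-2.002, SE 0.604, adjusted p = 0.0109; corrected adjusted p = 0.0342), a call lost without either sham replicate (adjusted p = 0.0531 and 0.0565). Tnnt2, cardiac troponin T, was at -0.36 (adjusted p = 0.611), and Nppb, the natriuretic peptide of loaded myocytes, rose by 2.69 (adjusted p = 0.00215; corrected 1.93, adjusted p = 0.0123). Of 18 cardiomyocyte markers tested, 1 was higher and 3 lower as deposited, and 1 and 2 corrected. These shares were below those of all genes. Endothelial markers summed to 504 to 566 FPKM against 254 and 404, with Pecam1 at -0.24 (adjusted p = 0.631). Of 22 endothelial genes, 4 were higher and 5 lower as deposited, and 2 and 1 corrected, shares not above those of all genes. By the median transcript 1 was higher and 1 lower. Leaving out single libraries gave 1 to 4 higher and 2 to 5 lower as deposited, and 0 to 4 higher corrected. Markers of lymphocytes were near 0, with sums of 1.22 to 1.41 FPKM against 0.943 and 4.03, and none of these or of the adipocyte markers passed the filter. Erythroid markers, mostly haemoglobin, ran from 744 to 3322 FPKM after TAC and were at 793 and 2258 after sham, with none called.

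The genes that moved against the length trend were few. In the fifth of genes with the longest transcripts, above 4664 bases, 17 of 1862 were called higher in both fits. Only genes whose median transcript was also above that length were counted, with a mean of at least 5 FPKM in the higher group. The groups were allowed to overlap. Besides Col1a1, Col1a2 and Col2a1 they included S1pr2, a receptor for sphingosine 1-phosphate (1.12, adjusted p = 8.89e-05), Scd2, a fatty acid desaturase (0.97, adjusted p = 0.001), and Ehd2, a protein of caveolae (0.99, adjusted p = 0.00413). In the fifth with the shortest, below 1499 bases, 36 of 1861 were called lower in both fits. The limit of 5 FPKM was the same, with none on the median transcript or on overlap. Among these were Ccl5, Ifnb1 and Ccl3, the anti-inflammatory cytokine Il10 (-2.64, adjusted p = 0.00188), B2m, the light chain of MHC class I (-1.03, adjusted p = 0.00076), Lyz2, lysozyme (-1.52, adjusted p = 0.00586), and Apoe, apolipoprotein E (-1.52, adjusted p = 0.00055). Apoe was at 170, 187 and 169 FPKM after TAC and 334 and 760 after sham. These sets and the genes named from them were chosen after their values were seen, and a few annotated lengths, such as 5179 bases for Rps15a, may not be those of the RNA expressed.

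Among the 15 largest rises, the gene with the highest level after TAC was Lars2, which encodes a mitochondrial leucyl-tRNA synthetase, at 1527, 1509 and 1513 FPKM after TAC and 103 and 113 after sham (3.80, SE 0.555, adjusted p = 4.06e-05; corrected 4.08, adjusted p = 6.36e-05). Rn45s, the precursor of ribosomal RNA, an RNA without a poly-A tail, was at 2724, 3041 and 1588 FPKM against 146 and 183 (3.84, SE 0.908, adjusted p = 0.00249). Sedentary libraries held Lars2 at 42.4 to 193 and Rn45s at 171 to 273 FPKM, with sham. Among the TAC, sham and sedentary libraries given here, both genes thus followed the same division as the length trend. Whether they did so in the other fibroblast libraries of the series was not tested. The part of library preparation in the comparison was not tested either.

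In the authors' deposited table of this comparison, 2210 of 12801 tests were significant and higher and 2348 were significant and lower at their q-value below 0.05. Of the 5383 genes called here, 3456 were also called there, and all 3456 had the same direction in both. Both rest on the same libraries, so for genes called in both a shared direction was nearly given in advance. Ahnak and Dcn, called lower here, were not called there (authors' q-values 0.554 and 0.305). Acta2 and Il6, not called here, were called there (authors' q-values 0.0231 and 0.0132). The authors' deposited table gives a log2 fold change of -6.43 for Ccl5 and of 1.70 for Col1a1, computed on FPKM without an added constant.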

How the data were processed

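RNA of 22 libraries was quantified by the authors as FPKM per gene with Cufflinks 2.0.2 on mm10, per the submitters' processing notes; no aligner is named there. A comparison that the authors deposited gives log2 fold changes with p-values and q-values. 44 columns that match no sample were not used. Here, log2(FPKM + 1) of 19 fibroblast libraries entered a single limma 3.58.1 fit (R 4.3.3, trended and robust variance), with TAC minus sham as the contrast. Genes below an FPKM of 1 in all but 1 library were left out, and Benjamini-Hochberg adjusted p below 0.05 a call. Data of this comparison were simulated with 9425 genes, of which 200 were changed, with independent errors and no length trend between the groups. There 77% of genes changed by 1 log2 unit and 96% of those changed by 2 were called, and 5.98% of calls were false. The real data hold such a trend and far more calls, so these shares need not hold for them.

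Length and GC trends were removed per library with natural splines of 4 degrees of freedom; 109 genes without a length left that fit. A gene's length was that of its longest basic protein-coding transcript. The median transcript was tried too, and the choice between them was made with the results of both in view; values by the median are given for the larger differences. Relative depth came from the values, after other estimates had been tried. The gene lists, motifs, plotted genes and sets against the length trend were chosen with earlier results of these data known. Named genes were the 15 largest rises and 15 largest falls called in both fits without overlap at a mean of at least 5 FPKM, up to 4 called members per list with the 2 most abundant that did not pass, and 26 preset genes; genes of uncertain symbol and most near-identical copies were passed over. Lists were described by counts and medians, with no test of a list. Replicate numbers follow accession order and pair no samples. Some genes that the naming rule picks are not reported here.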

Additional observations from a re-analysis of the deposited data

How the results depend on the processing

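The 2953 higher and 2430 lower genes became 1738 and 859 of 4191 at a filter of 5 FPKM, 1166 and 401 of 3202 in transcripts of 1500 to 3000 bases, and 947 and 677 of 3464 when that window used the median transcript; fewer genes were tested in each. Without a filter 3775 genes were lower. With the length and GC trend removed 1597 were lower, or 1712 by the median transcript. Leaving out 1 library gave 2196 to 2894 higher and 1958 to 2354 lower as deposited, and 1739 to 2512 higher and 1191 to 1538 lower corrected (1287, 1538 and 1208 without TAC replicates 1, 2 and 3, and 1215 and 1191 without sham replicates 1 and 2); the lowest counts of higher genes were those without sham replicate 1. The slope of expression on transcript length, TAC minus sham, was -0.51 per doubling, and -0.64 at the filter of 5 FPKM and -0.72 with a pseudocount of 0.1; the cause was not tested. With 50 preset and rule-named genes followed, 39 combinations of gene and setting changed direction, all in 7 genes not called as deposited. With the length and GC trend removed, Ccl2 was at -0.39, Fn1 at 0.090 and Postn at 0.10; with only the length trend removed, Ccl2 was at -0.74, Fn1 at 0.35 and Pecam1 at 0.021. By the median transcript, Ccl2 was at -0.15, Emr1 at 0.14, Fn1 at 0.093, Pecam1 at 0.075 and Postn at 0.28. Quantile normalization put Ccl2 at -0.39, and sedentary libraries joined to sham put Postn at 0.31. As deposited, leaving out 1 library gave ranges of -1.10 to 0.43 for Postn, -0.099 to 1.36 for Col3a1, -0.64 to 0.23 for Tcf21, -0.75 to 1.11 for Ccl2, -0.73 to 0.076 for Emr1, -0.79 to 0.31 for Pecam1, -0.95 to 0.0097 for Fn1. Corrected, the changes of direction with 1 library left out were Ccl2 at -0.59 without TAC replicate 1, -0.72 without TAC replicate 2, -1.30 without sham replicate 2, and Emr1 at 0.041 without TAC replicate 1, 0.0048 without TAC replicate 2, 0.44 without sham replicate 2, and Fn1 at 0.13 without TAC replicate 1, 0.082 without TAC replicate 2, 0.054 without TAC replicate 3, 0.53 without sham replicate 2, and Pecam1 at 0.38 without TAC replicate 3, 0.55 without sham replicate 2, and Postn at 0.10 without TAC replicate 1, 0.0087 without TAC replicate 2, 0.19 without TAC replicate 3, 0.93 without sham replicate 2. No paired analysis was possible because the replicate numbers follow accession order and do not tie samples together. The depth of the libraries is known only relative to each other, so no counting interval can be given.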

Other observations

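Antioxidant genes split. Gpx1, a glutathione peroxidase, was at 215, 172 and 319 FPKM after TAC and 26.8 and 60.3 after sham (log2 fold change 2.47, adjusted p = 1.89e-05; corrected 1.503), and Prdx2, a peroxiredoxin, rose by 2.34 (adjusted p = 2.29e-06; corrected 1.91). Txnrd1, thioredoxin reductase, was at 19.6, 28.1 and 9.46 FPKM against 86.6 and 61.1 (adjusted p = 0.0155; corrected log2 fold change -1.71). The ferritin light chain Ftl1, at 796, 947 and 925 FPKM against 797 and 1012, did not pass as deposited (-0.02, adjusted p = 0.951) and was lower corrected (-1.06, adjusted p = 0.00279). Of 38 genes tested, 19 were higher and 6 lower as deposited, and 15 and 4 corrected, with 9 lower by the median transcript. Their median transcript length, 1581.5 bases, lay in the decile of 1500 to 1901 bases. There 49.2% of all genes were higher and 6.34% lower as deposited, and 23% and 15.5% corrected. The share higher as deposited was thus near that of genes of this length, and the corrected share was above it. The lower count as deposited was 3 without TAC replicate 1 and 1 without TAC replicate 3.

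Heat shock genes and chaperones moved both ways. The shares of all genes were 31.3% higher and 25.8% lower as deposited, and 27.7% and 17.1% corrected. Hsp90aa1, an inducible cytosolic chaperone, was at 13.7, 19.1 and 9.17 FPKM after TAC and 76.9 and 52.1 after sham (-2.16, adjusted p = 0.00186; corrected -1.69), and Hspa5, the main chaperone of the endoplasmic reticulum, at 49.0, 61.5 and 42.0 against 186 and 138 (-1.65, adjusted p = 0.00463; corrected -1.18, adjusted p = 0.0203). Hspe1, a small mitochondrial co-chaperone, rose by 2.58 (adjusted p = 4.05e-06; corrected 1.65). Of 22 heat shock genes tested, 9 were lower and 3 higher as deposited, and 6 and 2 corrected; the lower count was 5 without sham replicate 1 or sham replicate 2, and corrected it was 2, with 1 higher, without sham replicate 1. Of 26 genes of the endoplasmic reticulum stress list, which holds Hspa5, 9 were higher and 7 lower as deposited, and 8 and 6 corrected; the corrected lower count was 3 without TAC replicate 3 and 2 without sham replicate 1. Pdia6, a disulfide isomerase, rose by 1.27 (adjusted p = 7.82e-05; corrected 1.18), and was named after its values were seen.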
